A study of Mus musculus with 21 samples.

Results

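The transcripts described here encode 10 subunits of the SAGA and ATAC complexes: Tada1, Tada2a, Tada2b, Tada3, Trrap, Usp22, Atxn7, Taf5l, Taf6l and Supt7l. They were taken by gene name from a count table of 41608 genes, and all 10 were found and passed the filter on low counts that left 12187 genes for testing. GCN5 itself (gene Kat2a), the acetyltransferase of both complexes, is not among them and serves as a reference. The choice also named c-MYC peaks at the gene starts in both peak lists of the study, a condition that 4 of the 10 genes met (below).

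The study asks how HSF1, the transcription factor of the heat-shock response, affects transcription driven by c-MYC. The RNA came from mouse embryonic fibroblasts (MEFs) that had been immortalized, in 4 groups of 3 libraries. Cells of a line stably expressing LacZ, or of a line stably expressing V5-tagged GCN5, were transfected for 2 days with 10 nM of control siRNA, called siControl, or of an siRNA to Hsf1, called siHsf1. The labels call the libraries triplicates without saying whether these were separate cultures, so p-values measure the spread between libraries, which may be technical. The sources used here do not say whether a line is 1 clone, which promoter drives the transgene, or from which species its GCN5 comes. Sites of c-MYC were mapped in crosslinked MEFs by CUT&RUN, where a nuclease tethered to the antibody releases the DNA next to a bound protein. The cells were given ethanol (Hsf1 WT) or 4-OHT (Hsf1 CKO) for 7 days, with 2 samples each and 1 IgG sample on a 1:1 mix of both. Another 4 of the 21 samples, with siControl or siMyc, were not analysed here.

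SAGA is a large coactivator that is recruited to promoters by transcription factors. Its acetyltransferase module joins GCN5 (or its paralog KAT2B) to ADA2B, ADA3 and SGF29. A deubiquitinase module removes ubiquitin from histone H2B. TRRAP is the surface that activators, c-MYC among them, contact, and a core of TAF-like proteins holds these parts together. ATAC has the same acetyltransferase with ADA2A in place of ADA2B and shares ADA3, but lacks TRRAP and the deubiquitinase.

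Sequences around the starts are shown first, because c-MYC binds DNA with its partner MAX at the E-box CACGTG. RefSeq promoter windows (GRCm38.p6, 250 bases before to 50 after a listed start) were found for 8 of the 10 genes, as 9 windows. Those of Atxn7 and Trrap belong to listed starts 51052 and 1056 bp from the gene start of the count table, so they do not show the sequence at that start. CACGTG, which reads the same on both strands, lay in a window of 3 of these 8 genes, and in 7.15% of all 32851 windows. Each is printed within 30 bases on the strand of its gene, with the E-box in capitals.
Tada2a: cacgggaccgcgCACGTGagtcgaggccgc
Taf5l: cgagcgaccccgCACGTGgcggccccggct
Taf6l: agaagcgccactCACGTGaccaacgtcgcc
These stretches lie on the minus strand at chr11:84129622-84129651 (Tada2a), chr8:124021028-124021057 (Taf5l) and chr19:8786415-8786444 (Taf6l). The E-boxes sit at -71, 11 and -116 bases from the RefSeq start. In Tada2a and Taf5l the E-box is inside the span of the gene in the count table, and in Taf6l it lies just upstream of it. The Taf5l E-box was inside a c-MYC peak of both lists, that of Tada2a inside the WT peak alone, and that of Taf6l inside the CKO peak alone. The variant CACGCG (either strand) occurred in a window of 1 gene, Taf5l, and in 9.27% of all windows. Neither heat shock element core, TTCNNGAA or GAANNTTC (both strands), was in any of the 9 windows, against 8.52% and 7.86% of all windows.

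A peak was also listed over starts whose RefSeq window lacks that E-box. The sequences just upstream of Tada3 (chr6:113377941-113378088, covered by a peak in both lists) and Supt7l (chr5:31526763-31526849, covered in the WT list) are given for that contrast, both from the minus strand.
Tada3: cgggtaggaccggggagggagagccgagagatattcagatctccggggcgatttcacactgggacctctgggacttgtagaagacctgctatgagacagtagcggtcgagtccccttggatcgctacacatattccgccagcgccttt
Supt7l: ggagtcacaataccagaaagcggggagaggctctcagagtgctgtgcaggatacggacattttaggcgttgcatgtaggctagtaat
Neither stretch holds CACGTG. The WT peaks are wider, 3154 bp at Tada3 and 2441 bp at Supt7l, and were not searched beyond the RefSeq windows. The highest coverage of the Supt7l peak lies at -564 bp from the start, outside the printed stretch. These stretches therefore do not show whether a peak as a whole lacks the E-box. The 87 bases before Supt7l fill the space up to the start of Slc4a1ap on the opposite strand, 88 bp away, and Arpc4 starts 173 bp from Tada3 in the same head-to-head way.

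LacZ libraries had 7.22 to 8.16 M (mega) gene counts and GCN5 libraries 3.69 to 4.27 M, so that depth and line cannot be told apart. The 10 genes had between 53 (Taf6l) and 2180 (Trrap) counts in a library. Values below are counts per megacount of the library (CPM) after TMM scaling, which sets libraries to equal expression of most genes. Scaling to the ERCC spike-in, which the series names, is given beside it, because it moved the median of all tested genes to -0.35 on the log2 scale for siHsf1 in the LacZ line. Levels of the fibroblast markers differed widely. Col1a1 was at 1199.5 to 2043.8 CPM, but Col3a1 was at 9.47 to 40.9, Postn at 0.137 to 3.59 and Thy1 at 0 to 0.122 CPM. Epcam, Adgre1, Itgam, Cd3e, Myod1, Myog and Ckm had no count in any library. Other markers of those cell types were detected in every library: Krt18 at 30.1 to 62.1 CPM, Cd68 at 3.12 to 13.8, Csf1r at 0.470 to 2.70 and Des at 3.51 to 7.07. The knockdown was visible in both lines: Hsf1 averaged 130.3 ± 3.4 CPM (SD, n = 3) in siControl LacZ and 53.6 ± 5.1 in siHsf1 LacZ, and 132.0 ± 9.5 in siControl GCN5 and 71.8 ± 3.5 in siHsf1 GCN5. Its estimated log2 change was smaller in size in the GCN5 line, -0.88 ± 0.08 (SE) against -1.28 ± 0.08 in the LacZ line. Comparisons of siHsf1 responses between the lines therefore also compare knockdowns of different depth.

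GCN5 transcripts set the scale for its partner subunits. Kat2a was 215.2, 214.7 and 219.8 CPM in siControl LacZ libraries 1 to 3, and 124.6, 117.5 and 130.1 CPM in siHsf1 LacZ. With GCN5 expressed it was 262.2, 233.4 and 245.4 CPM with siControl and 247.1, 252.2 and 244.4 CPM with siHsf1. The siHsf1 LacZ libraries were low, with no overlap with any other group. Kat2a fell by 0.80 ± 0.06 on the log2 scale (SE) in the LacZ line (edgeR, adjusted p = 1.7e-10). The change with GCN5 expressed was 0.01 ± 0.06 (adjusted p = 0.99), and these counts cannot tell the endogenous gene from a transgene of mouse sequence.

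Per length, the 10 transcripts spanned a wide range of levels. In the authors' FPKM, given as lowest, median and highest of the 12 libraries, Usp22 stood highest at 28.3, 34.7 and 38.7, and Taf5l followed at 18.03, 22.4 and 26.5. Trrap (11.7, 16.5 and 18.4), Tada3 (13.8, 16.2 and 19.01) and Tada2a (14.2, 15.9 and 17.8) overlapped throughout. Tada1 was at 8.59, 10.5 and 12.1. Supt7l (6.51, 8.19 and 9.41), Taf6l (5.62, 7.78 and 11.3) and Tada2b (6.01, 7.62 and 9.46) formed another overlapping set, and Atxn7 was lowest at 1.62, 2.39 and 3.31. Usp22 in every library exceeded every library of the other 9, and Atxn7 in every library lay below all of them. The same order was found with CPM per kilobase.

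With siHsf1 in the LacZ line, the log2 estimates of the 10 subunits ran from -0.20 (Taf5l) to 0.41 (Atxn7), against -0.80 for Kat2a. Atxn7 and Usp22 rose, Taf5l fell, and 7 did not pass the test (edgeR, adjusted p under 0.05). Calls among all tested genes were 40.6%, with 21.1% higher and 19.5% lower, so the 3 calls in 10 are near the background. The median log2 change of the 10 was 0.18, against 0.02 over all tested genes. Of the 10 estimates 7 were above 0 with TMM scaling. With spike-in scaling, where edgeR called 7.02% of tested genes, 1 of 10 was above 0 and none was called, the median being -0.22 against -0.35 over all genes. At an unadjusted p under 0.05, TMM scaling gave 5 of the 10, where the background was 48.6%, and DESeq2 called 1 of the 10 (Atxn7) against 34.8%. Without siHsf1 LacZ replicate 1, edgeR called none of the 10.

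**Figure D1:**
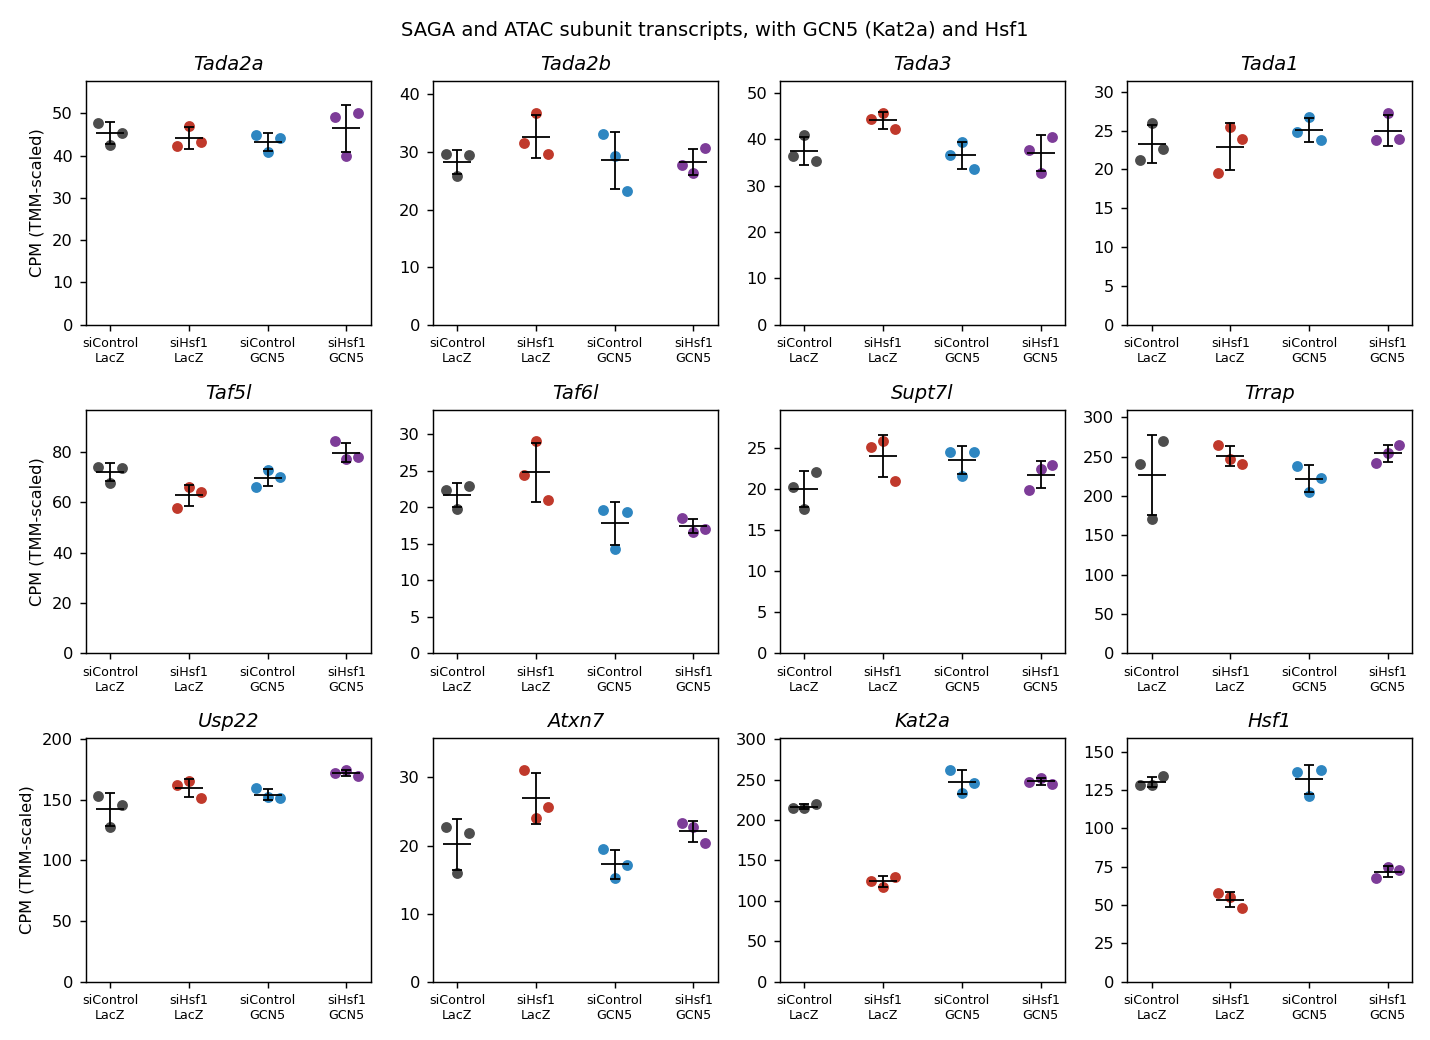
CPM after TMM scaling (y axes, each from 0) of the 10 subunit transcripts, Kat2a and Hsf1 in the 12 libraries, by group on the x axis; dots are libraries, bars the mean and the SD over 3 libraries. Kat2a in siHsf1 LacZ (117.5 to 130.1 CPM) lies apart from the other 3 groups, while most of the 10 subunits overlap across groups.

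Among the deubiquitinase module, Atxn7, which anchors that module to SAGA, had the largest estimated change of the 10 in the LacZ line. Its values were 22.8, 15.9 and 21.9 CPM in siControl LacZ libraries 1 to 3 and 31.1, 23.99 and 25.7 CPM in siHsf1 LacZ. Every siHsf1 library lay above every siControl library, as was so for 26.4% of tested genes. The log2 difference was 0.41 ± 0.13 (95% interval 0.14 to 0.69, adjusted p = 0.015), and 0.05 ± 0.32 with spike-in scaling. Without siControl LacZ replicate 2, the lowest library, it was 0.27 (adjusted p = 0.11), and without siHsf1 LacZ replicate 1 it was 0.30 (adjusted p = 0.11). GCN5-expressing cells had Atxn7 at 19.4, 15.2 and 17.1 CPM with siControl and 23.3, 22.7 and 20.4 CPM with siHsf1. These groups did not overlap either, yet the difference of 0.36 ± 0.16 did not pass (edgeR, adjusted p = 0.47). The 5′ end of Atxn7 overlaps Thoc7 on the opposite strand by 409 bp, and whether counting used strand is not given in the sources used here.

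Usp22, the ubiquitin protease of the module, was 153.5, 127.5 and 145.6 CPM in siControl LacZ and 162.7, 165.2 and 151.3 CPM in siHsf1 LacZ. The groups overlap, since siControl library 1 exceeds siHsf1 library 3. The difference of 0.17 ± 0.07 (95% interval 0.03 to 0.31) passed narrowly, with an adjusted p of 0.0497, and was -0.23 ± 0.32 with spike-in scaling. It was not called without siControl LacZ replicate 2 (0.10, adjusted p = 0.24), nor without siControl LacZ replicate 3 or siHsf1 LacZ replicates 1 or 2. The GCN5 line gave 159.7, 152.2 and 151.4 CPM with siControl and 171.8, 174.8 and 169.5 CPM with siHsf1, which do not overlap. That difference, 0.16 ± 0.07, had an adjusted p of 0.50 in edgeR.

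Taf5l, of the core of SAGA, responded differently in the lines. It encodes a WD-repeat protein related to the TFIID subunit TAF5. It was 74.1, 67.8 and 73.7 CPM in siControl LacZ and 57.8, 66.2 and 64.0 CPM in siHsf1 LacZ, every siHsf1 library being lower, as for 23.5% of tested genes. It fell by 0.20 ± 0.08 on the log2 scale (95% interval -0.35 to -0.04, adjusted p = 0.044). Without siControl LacZ replicate 1 or 3, or siHsf1 LacZ replicate 1 or 3, the fall of 0.14 to 0.21 was no longer called (adjusted p from 0.066 to 0.20), nor was the change of -0.60 ± 0.32 with spike-in scaling. The order was opposite in the GCN5 line: 66.1, 72.8 and 70.2 CPM with siControl and 84.2, 77.1 and 77.9 CPM with siHsf1. All siHsf1 GCN5 libraries were above all siControl GCN5 libraries, but the difference of 0.19 ± 0.08 had an adjusted p of 0.47. The difference between the responses was tested directly as an interaction and was 0.39 ± 0.11 (95% interval 0.16 to 0.62, adjusted p = 0.015), the only one of the 10 called, where the background is 22% of tested genes. Kat2a had an interaction of 0.81 ± 0.09, and of 1.13 ± 0.45 with spike-in scaling (adjusted p = 0.45). The Taf5l interaction was 0.34 to 0.44 when each library was left out in turn, and it missed the threshold without siHsf1 GCN5 replicate 1 (0.35, adjusted p = 0.052). With spike-in scaling it was 0.77 ± 0.45 (adjusted p = 0.73), with 0.394% of tested genes called.

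Supt7l, a histone-fold protein of the core, had the second largest interaction, of -0.38 ± 0.18 (adjusted p = 0.14), in the other direction. It was 20.3, 17.7 and 22.1 CPM in siControl LacZ, 25.2, 25.9 and 21.1 in siHsf1 LacZ, 24.5, 21.7 and 24.6 in siControl GCN5 and 19.9, 22.5 and 22.9 in siHsf1 GCN5. Neighbouring groups overlap, and its LacZ difference of 0.26 ± 0.12 had an adjusted p of 0.078. That difference was called without siControl LacZ replicate 3 (0.34, adjusted p = 0.043) or siHsf1 LacZ replicate 3 (0.35, adjusted p = 0.036). Over all fits without 1 library it ran from 0.18 to 0.35 (adjusted p from 0.036 to 0.28). Taf6l, related to the TFIID subunit TAF6, was 22.4, 19.8 and 22.9 CPM in siControl LacZ and 24.4, 29.1 and 20.97 CPM in siHsf1 LacZ, which overlap (0.19 ± 0.13, adjusted p = 0.24). Tada1, a further core subunit, ranged from 19.6 to 27.3 CPM over all libraries, with a difference of -0.02 ± 0.12 in the LacZ line (95% interval -0.26 to 0.22).

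Of the genes of the acetyltransferase module, Tada3 had siHsf1 LacZ libraries at 44.5, 45.8 and 42.2 CPM. Each was above the siControl LacZ libraries at 36.4, 41.02 and 35.3 CPM, as for 26.4% of tested genes. ADA3 is a subunit of both SAGA and ATAC. The difference of 0.23 ± 0.09 had an adjusted p of 0.053 (edgeR), and was -0.13 ± 0.32 with spike-in scaling. Leaving out 1 library in turn gave 0.19 to 0.30 (adjusted p from 0.022 to 0.17). The lowest adjusted p, 0.022, came without siControl LacZ replicate 2 (0.30). Tada2b, the SAGA-specific adaptor, gave 29.7, 25.9 and 29.4 CPM with siControl and 31.5, 36.8 and 29.6 CPM with siHsf1 in the LacZ line (0.21 ± 0.12, adjusted p = 0.16). Tada2a, its ATAC counterpart, stayed between 39.9 and 50.1 CPM in all 12 libraries, with a LacZ difference of -0.03 ± 0.09 (95% interval -0.22 to 0.16). The 95% intervals of Tada1 and Tada2a do not reach the fall of 0.80 seen for Kat2a with the same scaling.

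Trrap, the pseudokinase that c-MYC contacts and that the TIP60 complex also uses, varied most among siControl LacZ libraries. It was 240.6, 171.02 and 269.6 CPM there and 265.4, 247.7 and 240.6 CPM in siHsf1 LacZ. Replicate 2 of siControl LacZ was the lowest of all 12 libraries for Trrap and Usp22. The LacZ difference of 0.15 ± 0.14 (adjusted p = 0.44) was -0.02 without that library.

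In the GCN5 line siHsf1 called none of the 10 in edgeR, where 0.164% of tested genes (20) were called at all, and DESeq2, which called 0.287%, gave no call for those of the 10 with a value. At an unadjusted p under 0.05 there were 3 (Atxn7, Usp22 and Taf5l, all higher), with a background of 9.66%. Including Trrap, 4 of the 10 had every siHsf1 library above every siControl library, where 9.13% of tested genes did. The median of the 10 was 0.06, against 0.00 over all tested genes. With 3.69 to 4.27 M counts a library this line had less depth than the LacZ line, and the standard errors of the 10 were 0.07 to 0.16, against 0.07 to 0.14 in the LacZ line. The estimated fall of Hsf1 was also smaller here, and its part in these results was not tested.

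**Figure D2:**
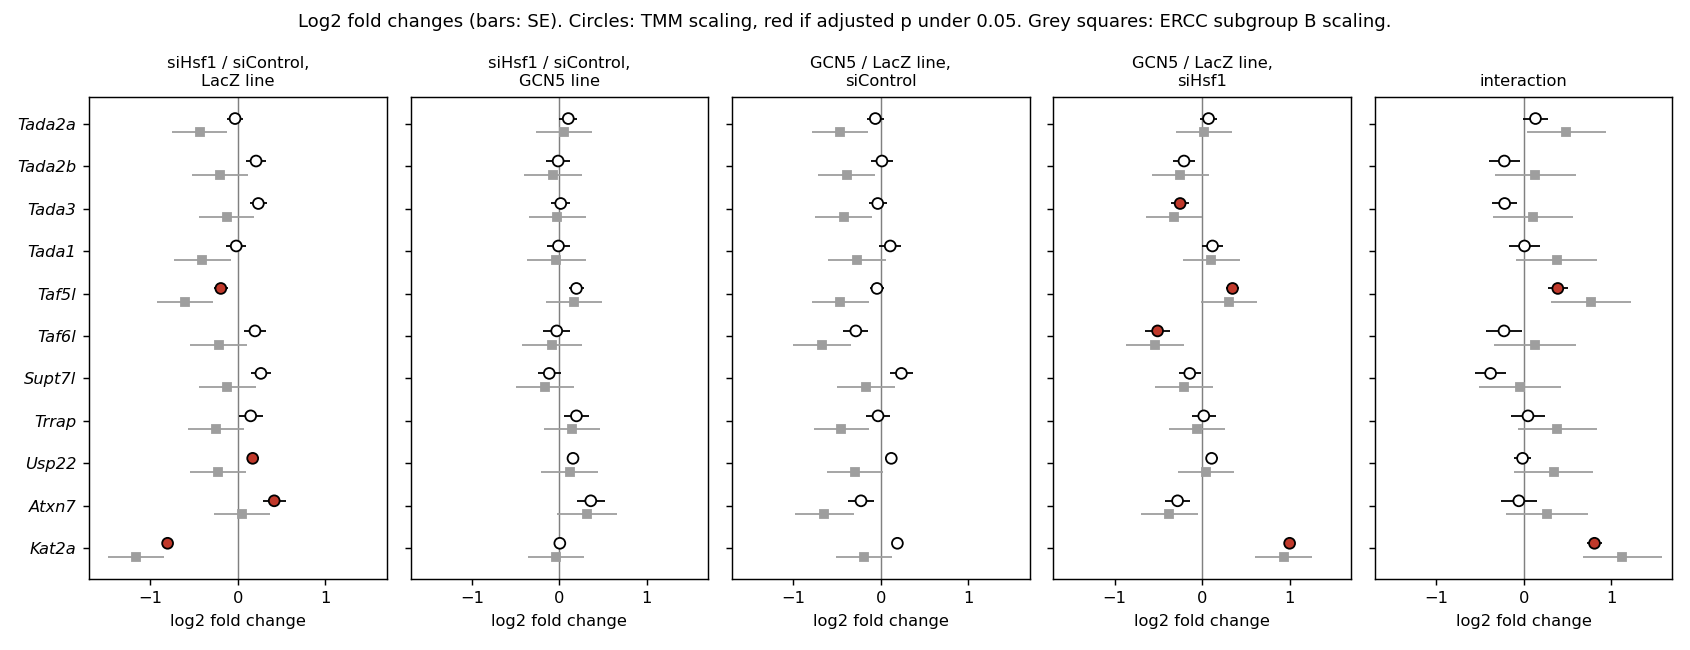
Log2 fold changes (x axes) of the 10 subunits and Kat2a in the 4 comparisons and the interaction; circles are TMM scaling, red where the adjusted p is under 0.05, grey squares are ERCC subgroup B scaling, and bars are the SE. Taf5l is red in the interaction at 0.39, and the grey squares of the LacZ knockdown lie to the left of the circles.

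Expressing GCN5 without knockdown called none of the 10 in edgeR or DESeq2, against 9.61% and 7.2% of tested genes, and none had an unadjusted p under 0.05, against 21.6%. The Kat2a difference was 0.19 ± 0.06, with an adjusted p of 0.051, and -0.20 ± 0.32 with spike-in scaling. The estimates of the 10 ran from -0.29 for Taf6l to 0.24 for Supt7l.

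Between the lines under siHsf1, Taf5l was higher and Taf6l and Tada3 lower in the GCN5 line, and 7 were not called. The background was 44.8%, with 22.2% higher and 22.6% lower. This comparison has the siHsf1 LacZ libraries in common with the LacZ knockdown. Taf5l differed by 0.35 ± 0.08 (adjusted p = 0.0010), its 77.1 to 84.2 CPM in siHsf1 GCN5 all exceeding the 57.8 to 66.2 CPM of siHsf1 LacZ, as for 27.4% of tested genes. Taf6l was 18.5, 16.7 and 17.1 CPM in siHsf1 GCN5, every library below the lowest siHsf1 LacZ library (20.97 CPM), as for 27.9% of tested genes, and the difference was -0.51 ± 0.14 (adjusted p = 0.0047). In siControl GCN5 it was 19.7, 14.3 and 19.3 CPM, also below every siControl LacZ library (12% of tested genes), with a difference of -0.29 ± 0.14 that was not called (adjusted p = 0.25). Tada3 was 37.7, 32.8 and 40.5 CPM in siHsf1 GCN5, and its difference of -0.25 ± 0.10 (adjusted p = 0.044) was -0.16 without siHsf1 GCN5 replicate 2 (adjusted p = 0.29). The Tada3 call was also lost without siHsf1 GCN5 replicate 1 or any siHsf1 LacZ replicate. No other subunit of the 10 passed here, and with spike-in scaling none did in edgeR, where 5.44% of tested genes were called. The estimates were then 0.31 ± 0.32 for Taf5l, -0.54 ± 0.33 for Taf6l and -0.32 ± 0.32 for Tada3, close to or larger in size than with TMM, with wider errors. DESeq2 did not call Tada3 (adjusted p = 0.12). Kat2a was 1.00 ± 0.06 higher in the same comparison, and 0.93 ± 0.32 with spike-in scaling (adjusted p = 0.067).

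The other subunits of SAGA and ATAC put these values in context. Of 20 listed, 19 were tested (Taf9b was not), and with siHsf1 in the LacZ line 6 fell and none rose in edgeR, where 19.5% of all tested genes were lower and 21.1% higher. Wdr5, an ATAC subunit also found in histone methyltransferase complexes, fell by 0.38 ± 0.08, Sf3b5 by 0.34 ± 0.10 and Taf10 by 0.29 ± 0.09. Eny2 of the deubiquitinase module fell by 0.24 ± 0.07, Taf9 by 0.21 ± 0.07 and Sf3b3 by 0.15 ± 0.05. Their median was -0.08, against 0.18 for the 10 and 0.02 over all tested genes. Several of the 6 also serve elsewhere: SF3B3 and SF3B5 in the spliceosome, TAF9 and TAF10 in TFIID. Kat2b, the paralog of Kat2a, had a change of 0.07 ± 0.09 (adjusted p = 0.54). None of the 19 was called in the GCN5 line in edgeR, against 0.164% of tested genes. At an unadjusted p under 0.05 there were 2 (background 9.66%), and DESeq2 called none of those it gave a value. The interaction, with a background of 22%, called Sf3b3 (0.25 ± 0.07, adjusted p = 0.015) and, in the other direction, Atxn7l3 (-0.26 ± 0.09, adjusted p = 0.042). With spike-in scaling none of the 19 was called in any of these comparisons (edgeR).

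**Figure D3:**
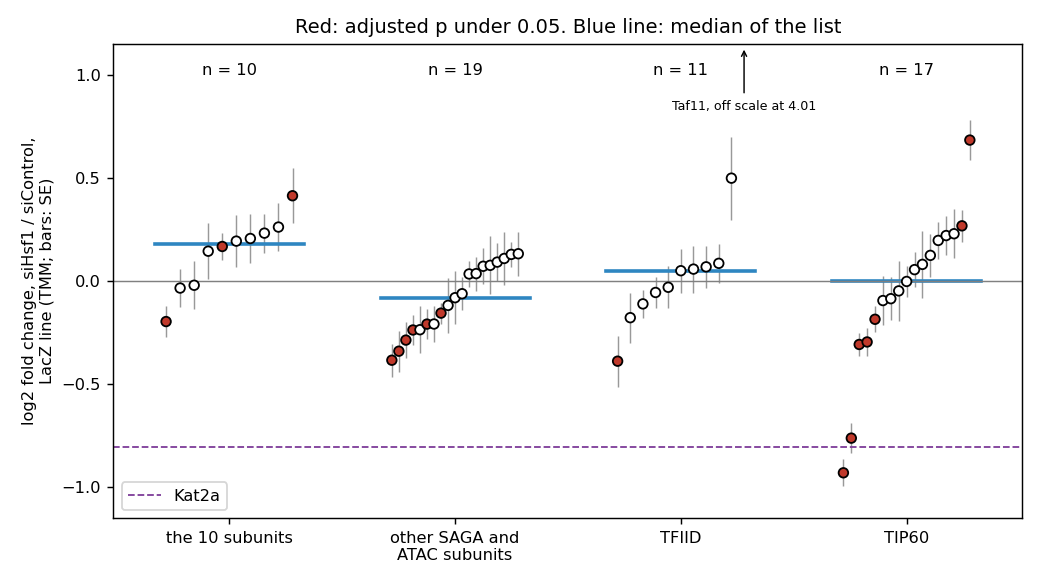
Log2 fold change of siHsf1 against siControl in the LacZ line (y axis, TMM scaling, bars SE) for the 10 subunits and for 3 lists of other genes along the x axis; red dots have an adjusted p under 0.05, blue lines are list medians and the dashed line is Kat2a. Each dot is a gene, Taf11 is off scale, and the median is 0.18 for the 10 subunits and -0.08 for the other SAGA and ATAC subunits.

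The 11 TFIID genes listed are Tbp and genes of TAF proteins, to which TAF5L and TAF6L are related. Taf9 and Taf10, which also serve in TFIID, were counted with the other subunits above. Of the 11, edgeR called 1 in the LacZ line, Taf13 (-0.39 ± 0.12, adjusted p = 0.014), where 40.6% of all tested genes were called. Taf11 had an estimate of 4.01 ± 1.71 that edgeR did not call (adjusted p = 0.097) and DESeq2 did (adjusted p = 0.042). That estimate rests on few counts and uneven libraries. Taf11 averaged 2.33 counts (0.29 CPM) in siControl LacZ, and 5.07 CPM with an SD of 3.85 in siHsf1 LacZ. Of the 17 genes of TIP60, the acetyltransferase complex that also contains TRRAP, 2 rose and 5 fell, close to the 40.6% of all tested genes called. Ruvbl2 fell by 0.93 ± 0.07 and Ruvbl1 by 0.76 ± 0.07, which encode a pair of ATPases used in several remodelling complexes, while Epc1 rose by 0.68 ± 0.10 and Morf4l2 fell by 0.31 ± 0.06. The Ruvbl1 and Ruvbl2 calls were the ones of this list that held with spike-in scaling. In the interaction 5 of the 17 were called, against 22% of tested genes, with Ruvbl2 (0.90 ± 0.10) and Ruvbl1 (0.69 ± 0.11) among them. Close paralogs of the 10 were not called in the LacZ line. Changes were -0.01 ± 0.26 for Usp27x, -0.18 ± 0.12 for Taf5, 0.09 ± 0.09 for Taf6, 0.11 ± 0.13 for Atxn7l1 and -0.24 ± 0.12 for Atxn7l2, none with an unadjusted p under 0.05 or a call in DESeq2, and Usp51 had no count.

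Marker levels moved with the LacZ knockdown. The summed CPM of the 10 fibroblast markers was 6526 to 7231 in siControl LacZ and 9349 to 10783 in siHsf1 LacZ, and 8101 to 8598 over both GCN5 groups. The 8 haematopoietic markers summed to 6.69 to 8.65 CPM and 11.98 to 14.3 CPM in the LacZ groups, with Adgre1, Itgam and Cd3e at 0 throughout and Cd68 and Csf1r the most abundant, and to 4.56 to 6.63 CPM in the GCN5 groups. Their part in the changes of Atxn7, Usp22 and Taf5l was not tested.

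Across the 12 libraries the 10 transcripts did not move as 1 unit. The highest Pearson r of log2 CPM was 0.74 for Trrap and Atxn7 and the next 0.73 for Trrap and Usp22, while Tada1 and Atxn7 gave -0.63 and Tada3 and Taf5l -0.56. These values describe libraries that share groups and depth. Among all tested genes, those most like Taf5l over the 12 libraries were Srbd1 (r = 0.91), Sf3b3 (0.91) and Topors (0.90). For Supt7l they included Dbn1 (0.90) and Leng8 (0.87), and for Tada3 they were Dolk (0.92), 2810428I15Rik (0.92) and Dcaf12 (0.92).

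At the gene starts, c-MYC peaks were listed for 8 of the 10 subunits in Hsf1 WT cells and for 5 in Hsf1 CKO cells. A peak counted when it overlapped the 500 bp either side of the annotated start. Among 12153 tested genes with a position, 73.7% had such a peak in the WT list, 34.1% in the CKO list and 32.8% in both, so the shares for the 10 genes (4 in both) are near the background. The WT list holds 220037 peaks and the CKO list 6386. Each genotype has 1 list, so no difference at a gene has a replicate error, and the far shorter CKO list leaves most WT peaks without a counterpart anywhere in the genome.

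Tada2a, Tada3, Usp22 and Taf5l had a peak in both lists. The Taf5l peak spanned chr8:124018743-124024000 in WT and chr8:124019691-124023396 in CKO and had the largest total signal of the 10 in both, 15.9 and 6.15 in the authors' units of coverage summed over the peak. Among WT peaks at starts of tested genes it was at the 88.3 percentile. Usp22 had 11.3 in WT (chr11:61171690-61175942) and 3.19 in CKO (chr11:61174101-61175684). Tada3 had 9.21 (chr6:113375597-113378750) and 2.81 (chr6:113377298-113378522), and Tada2a 8.003 (chr11:84128434-84130976) and 1.74 (chr11:84128928-84129628). The Tada2a peak of the CKO list lies inside the gene and stops short of its start. By total signal it was at the 16.6 percentile of all peaks in that list. Signals were compared within a list only.

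Tada1 (3.49), Supt7l (5.00), Trrap (3.63) and Tada2b (3.13) had a WT peak alone, all with lower WT signal than the 4 genes with a peak in both lists. Over all tested genes the median WT signal was 9.16 where the CKO list also had a peak and 4.88 where it did not. The peaks of Trrap (chr5:144767945-144769943) and Tada2b (chr5:36482203-36483996) lie inside the gene and stop short of its start. Taf6l had the reverse pattern, with a CKO peak of 2.07 (chr19:8785496-8786781) and its nearest WT peak 851 bp from the start. By total signal that CKO peak was at the 37.2 percentile of all peaks in its list. Atxn7 had no peak in either list within 500 bp, the nearest WT peak being 2571 bp away. Kat2a had 40.2 in WT, summed over 14760 bp, and 3.20 in CKO, summed over 1260 bp, so these totals are not compared. Of the 19 other subunits tested, 17 had a WT peak, 13 a CKO peak and 13 both.

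**Figure D4:**
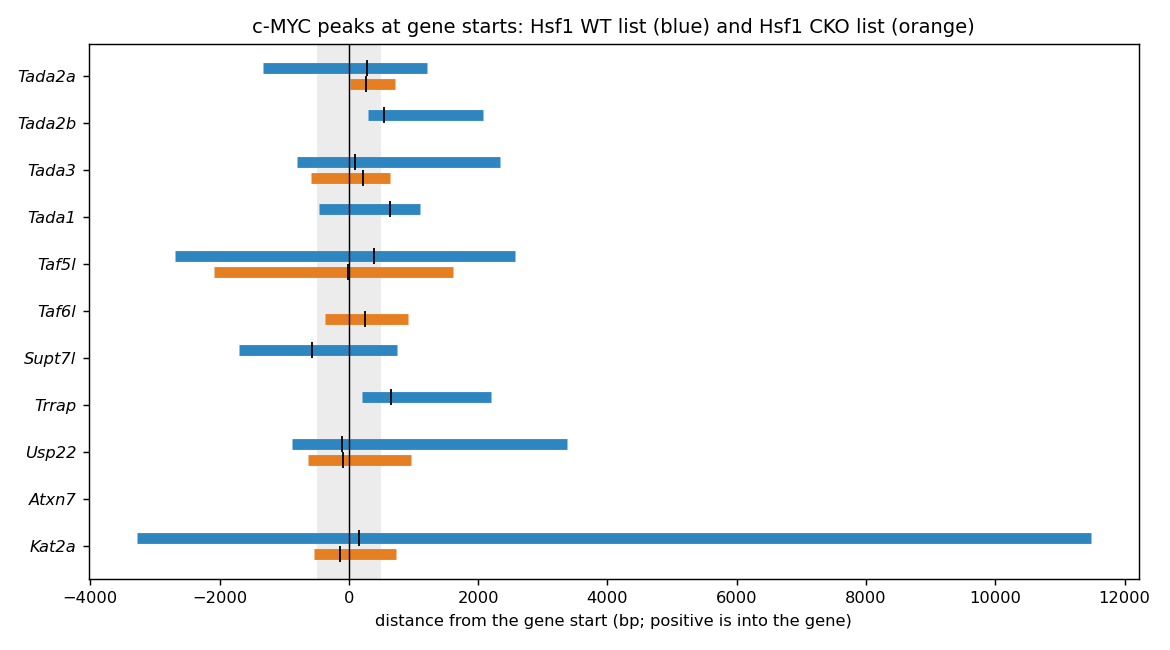
Extent of the c-MYC peak at each start (x axis, bp from the gene start, positive into the gene) for the 10 subunits and Kat2a; blue bars are the Hsf1 WT list, orange bars the Hsf1 CKO list, black ticks the highest coverage, and the grey band the 500 bp either side. Tada2a, Tada3, Taf5l and Usp22 have both bars, Taf6l the orange one only and Atxn7 none.

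Several of these peaks cannot be assigned to 1 gene. The start of Acaca lies 36 bp from that of Tada2a, Slc4a1ap 88 bp from Supt7l, Urb2 121 bp from Taf5l, Arpc4 173 bp from Tada3 and Ccdc96 303 bp from Tada2b, each on the opposite strand. Of the 3 subunits called in the LacZ knockdown, Taf5l and Usp22 had a peak in both lists and Atxn7 in neither. Of the 3 called between the lines under siHsf1, Taf5l and Tada3 had a peak in both lists and Taf6l in the CKO list alone. Of all 10, 4 had a peak in both lists, near the 32.8% of tested genes. Tada2a had both peaks without a call in either comparison. A link between peaks and calls was not tested.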

How the data were processed

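The authors deposited whole-number counts per gene and FPKM for the 12 RNA libraries, and 1 SEACR list of c-MYC peaks per genotype. The signal of a peak, made by the authors, is coverage summed over it, and a score, also the authors', is the maximal coverage in it. Per the submitters' processing notes, HISAT2, Bowtie2, SEACR and DESeq2 were used with GRCm38 or mm10. Their versions, the counter, strand use and any pooling of CUT&RUN replicates: not given in the sources used here. FPKM served only to order levels of different genes.

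Counts were tested in R 4.3.3 with edgeR 4.0.16: robust quasi-likelihood tests on 4 group means of 12 libraries (8 residual degrees of freedom), TMM scaling, filterByExpr with a minimum count of 10, two-sided, Benjamini-Hochberg adjustment over 12187 genes, calls at an adjusted p under 0.05. Alternatives used ERCC scaling, DESeq2 1.42.0, no filter, a replicate block, fewer libraries, other peak windows and a stricter peak threshold. The procedure was tested on simulated counts. For a gene without counts the limit, set at 3 counts of a library, is 0.353 to 0.829 CPM and covers counting error only.

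The genes, lists and tests were chosen with earlier results of these data known. The design text of the series names an ERCC spike-in control for RNA-seq. TMM was made the main scaling instead because the common biological coefficient of variation was 0.0890 with it, 0.274 with ERCC subgroup B (same amount in both mixes) and 0.262 with all ERCC transcripts. The ratio of ERCC subgroups A to B was 1.36 to 1.54 in all libraries, although the labels give mix 1 to siControl and mix 2 to siHsf1. ERCC subgroups were listed from memory. ERCC transcripts took 0.711% to 1.65% of counts. All 10 genes are named in every comparison, and the 3 most similar genes were taken for Taf5l, Supt7l and Tada3, which have the smallest p in the interaction. Some genes that these rules or the marker lists name are not reported here. Lists were named by called genes, up to 4 per comparison for TFIID and TIP60, and by all paralogs. Sequences are RefSeq's (GRCm38.p6).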

Additional observations from a re-analysis of the deposited data

Results flagged for a closer look

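The response of Taf5l to siHsf1 differed between the lines by the interaction test in edgeR. The log2 difference, GCN5 line minus LacZ line, was 0.39 ± 0.11 (adjusted p = 0.015), where 22% of tested genes were called. Taf5l was lower in 3 of 3 siHsf1 LacZ libraries than in any siControl LacZ library, as for 23.5% of tested genes. It was higher in 3 of 3 siHsf1 GCN5 libraries than in any siControl GCN5 library, as for 9.13%. The change within the GCN5 line was not called (edgeR, adjusted p = 0.47). The interaction was not called with spike-in scaling, nor without siHsf1 GCN5 replicate 1 (edgeR, adjusted p = 0.052).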

How the results depend on the processing

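No call among the 10 held with spike-in scaling. With ERCC subgroup B or all ERCC transcripts in place of TMM, the calls among the 10 went from 3 to 0 for siHsf1 in the LacZ line, from 3 to 0 between the lines under siHsf1 and from 1 to 0 for the interaction. The cause was not tested. In the LacZ line DESeq2 called 1 of the 10 and a fit of only the 6 libraries compared called 1. The CKO list had a peak at 3 starts instead of 5 when only peaks above their list's median total signal counted. Tada2a and Taf6l were the starts lost, and 20.4% of tested genes had a CKO peak by that threshold. No other alternative moved a count of the 10 by over 1.5 times, apart from leaving out libraries: the range was 0 to 3 for the LacZ line, 2 to 3 between the lines under siHsf1 and 0 to 1 for the interaction, and 0 to 0 for the other 2 comparisons. The count fell to 0 without siHsf1 LacZ replicate 1 and, for the interaction, without siHsf1 GCN5 replicate 1.

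Log2 differences changed sign as follows, the value with subgroup B first and with all ERCC transcripts second; none had an adjusted p under 0.05 in edgeR with either scaling. For siHsf1 in the LacZ line Tada2b was -0.20 and -0.20, Tada3 -0.13 and -0.13, Trrap -0.25 and -0.25, Usp22 -0.23 and -0.23, Taf6l -0.22 and -0.21, and Supt7l -0.12 and -0.12. With siHsf1 in the GCN5 line Tada3 was -0.022 and -0.044. Between lines under siControl Tada1 was -0.27 and -0.25, Tada2b -0.39 and -0.37, Usp22 -0.30 and -0.28, and Supt7l -0.16 and -0.15. Between lines under siHsf1 Trrap was -0.063 and -0.063. The interaction was 0.14 and 0.11 for Tada2b, 0.11 and 0.084 for Tada3, 0.34 and 0.32 for Usp22, 0.27 and 0.25 for Atxn7, and 0.13 and 0.10 for Taf6l. Without a filter on low counts the Usp22 interaction was 0.021.

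Leaving out 1 library in turn also changed signs, none of them in a called value. For siHsf1 in the LacZ line Tada1 ran from -0.10 to 0.081 and Trrap from -0.024 to 0.29. With GCN5 expressed Tada1 ran from -0.074 to 0.040, Tada2b from -0.14 to 0.11, Tada3 from -0.048 to 0.097 and Taf6l from -0.16 to 0.048. Between lines under siControl Tada2b ran from -0.11 to 0.13, Tada3 from -0.094 to 0.034 and Trrap from -0.20 to 0.11, and under siHsf1 Trrap from -0.011 to 0.058. The interaction ran from -0.091 to 0.094 for Tada1, from -0.093 to 0.22 for Trrap, from -0.054 to 0.061 for Usp22 and from -0.13 to 0.092 for Atxn7.

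Libraries of different groups that carry the same replicate number deviated together at most weakly (r = -0.06 to 0.10, median 0.03, over 0.1 in 1 of 18 pairs). The 36 pairs with different numbers had a median r of -0.02. The best match of a library in another group had its own number in 20 of 36 cases. Of 12 libraries, 1 correlated best with its own number in every other group. A small shared part per replicate number is therefore possible. With a replicate block edgeR called 4 of the 10 in the LacZ line, Tada3 being added (0.23, adjusted p = 0.0496). Of all 12187 tested genes 5120 were called there. Between the lines under siHsf1 it called 3 of the 10 (5590 of all tested genes), and for the interaction 1 (2854 of all tested genes). The block changed no other call of the 10. With it, Kat2a between lines under siControl had an adjusted p of 0.044. The lowest count of the 10 in a library was 53, for Taf6l.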
